A study of Drosophila melanogaster with 3 samples.

Results

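The forkhead genes of Drosophila melanogaster described here are CHES-1-like, jumu, foxo, FoxK, FoxP, fkh, croc and bin. They are 8 of the 18 forkhead genes and of the 13945 protein-coding genes on the 6 arms analysed (2L, 2R, 3L, 3R, 4 and X). The data were chromatin immunoprecipitation with sequencing (ChIP-seq) of az2, a zinc finger protein, in mixed-sex whole embryos 0 to 16 hours old. All 3 biological replicates form 1 group, from a transgenic line that stably makes az2 with GFP at its C-terminal end, and the antibody was against GFP. No untagged embryos, other stage or other protein were compared. Whole embryos were used, so a peak does not show in which cells or at which hour the protein was bound. The members were chosen by their measured peaks, above all the number at CHES-1-like, so their counts and signals are given as a description with no test.

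Forkhead proteins are transcription factors that bind DNA through a shared winged-helix domain. CHES-1-like and jumu belong to the FoxN group and are known in the fly embryo for the specification and division of cardiac progenitors. foxo carries the transcriptional response to low insulin signalling, and FoxK is known for midgut development. fkh is the founding member, needed for the salivary glands and both ends of the gut. croc acts in the embryonic head, bin is required in the visceral mesoderm, and FoxP is known for its roles in neurons.

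A summit is the base the authors' lists give as the top of a peak, on the build dm6. The authors kept 5786 peaks by IDR, the irreproducible discovery rate, which scores how well peaks agree between replicates, with signals of 132.9 to 4202 and a median of 232.5. This IDR list was made from the 3 replicates together, so no estimate of error comes with its signals. The signal is the value the authors' lists give for each peak, of unstated scale and never negative, and rank 1 is the highest. Each replicate also had a longer relaxed list of peaks and background, of 30000, 22372 and 30000 entries for replicates 1, 2 and 3. A summit was called replicated when it lay inside a peak of each replicate's list once that list was shortened to the 5786 entries highest in signal (the reduced list). Relative signal is the replicate's signal at a summit over that replicate's median at the 5683 IDR summits covered in all 3 whole lists, and it is given as mean ± SD over 3 replicates. It takes the signal as linear, which the files do not state. Depth per replicate is unknown, because peak lists carry no counts of reads.

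The 8 genes held 28 IDR summits within their spans or within 10 kb to either side, in 6 of the 8 genes, and none lay near FoxP or fkh. Of all protein-coding genes 67.8% had a summit in such a region. CHES-1-like had 12 summits, foxo 7, jumu 4, bin 3, and FoxK and croc 1 each. Inside the gene itself, 4 members had a summit (CHES-1-like, jumu, foxo and FoxK), which was true of 13.0% of all protein-coding genes. That share is over genes of all lengths. The 744 genes at least as long as CHES-1-like, foxo among them, held a median of 1 summit inside the gene. The 17 summits inside genes were unevenly spread, with 12 in CHES-1-like, 3 in jumu and 1 each in foxo and FoxK. Of the 11 summits beyond the genes, 7 lay upstream and 4 downstream. Within 500 bp of a transcription start site (TSS), 3 members had a summit (CHES-1-like, foxo and FoxK), beside 22.6% of all protein-coding genes. These counts were used to choose the genes, so the shares over all genes stand beside them as a scale only.

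**Figure D1:**
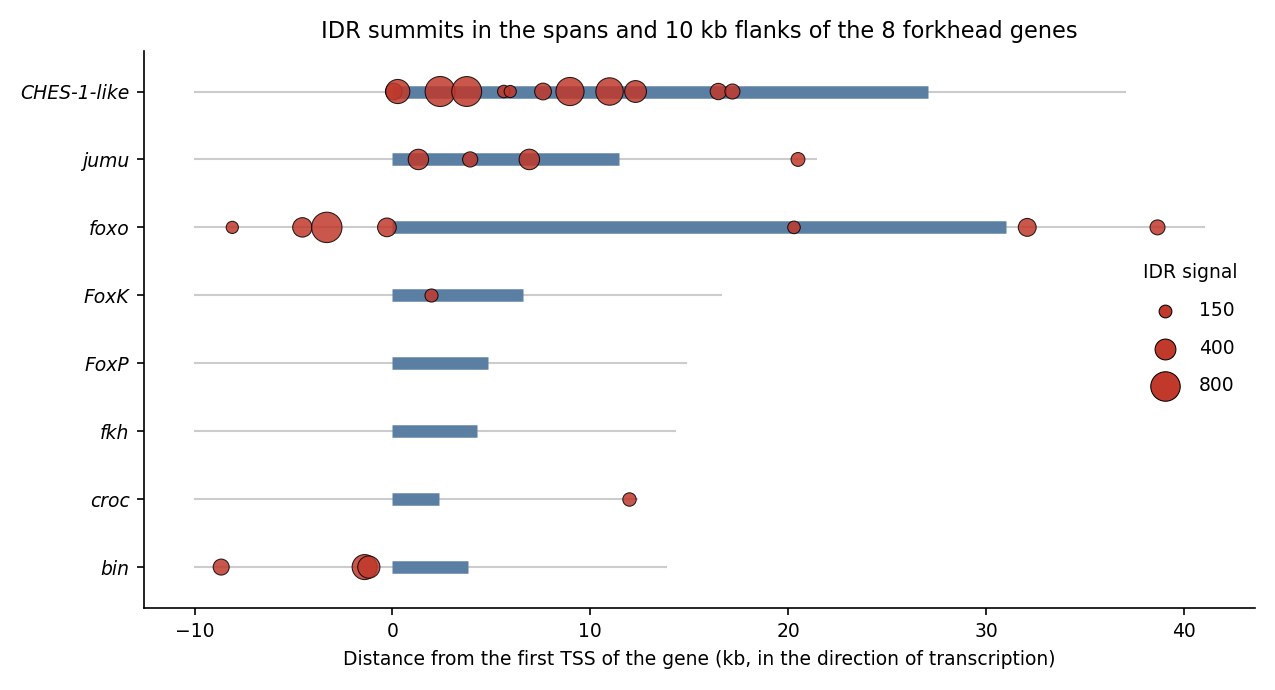
The 8 genes (blue bars) are drawn from their first TSS with 10 kb to either side (grey lines), and each red circle is an IDR summit with its area set by the IDR signal. The 12 summits of CHES-1-like lie inside the gene, the 3 summits of bin lie upstream, and no summit lies in the regions of FoxP and fkh.

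CHES-1-like (FBgn0029504, chrX:7682338-7709385, minus strand, 27048 bp) carried all of its 12 summits inside the gene. The first to the last covered 17119 bp, and 10 were intronic while 2 lay in the 5' UTR at the first TSS. The gene has 4 TSSs, at 0, 4422, 12681 and 14467 bp from its 5' end, and the coding sequence begins 19390 bp from it. Between TSS 1 and TSS 2 lay 4 summits, between TSS 2 and TSS 3 lay 6, between TSS 3 and TSS 4 lay 0, and between TSS 4 and the first coding base lay 2. No summit lay in the coding exons or in the last 9864 bp of the gene. Of the 12 summits, 8 were more than 1000 bp from any TSS of the gene.

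**Figure D2:**
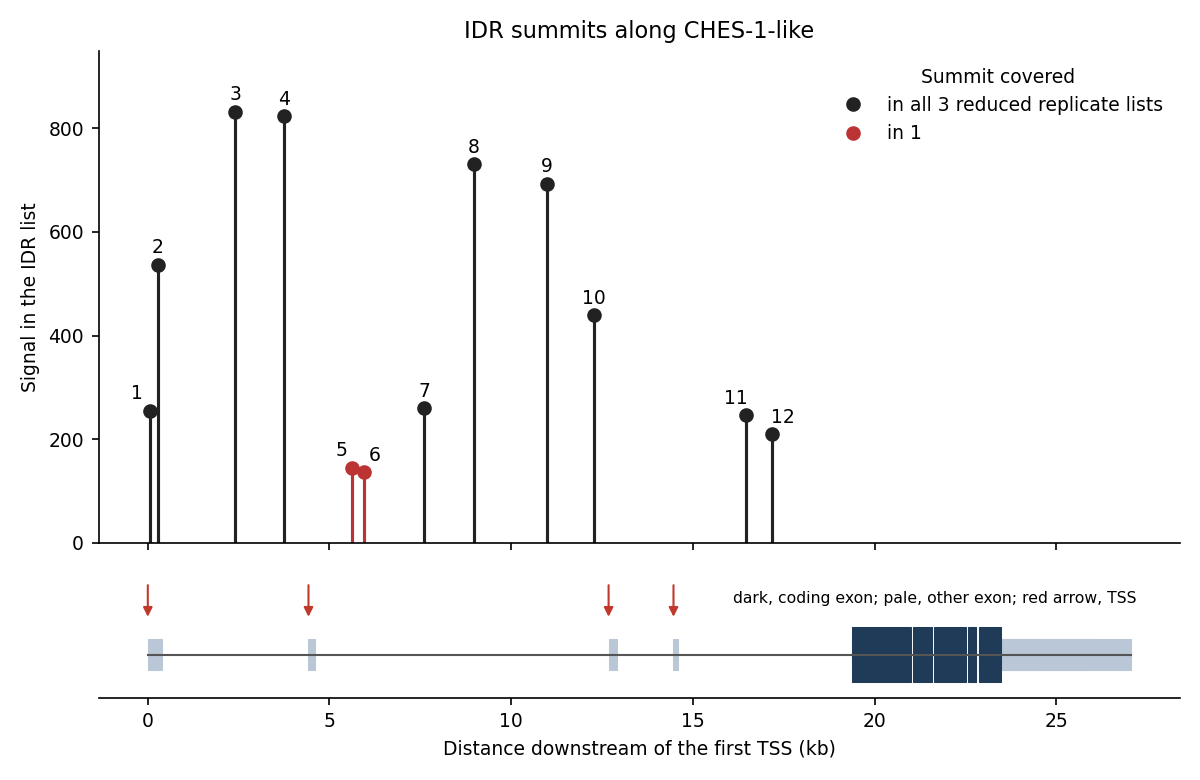
The upper panel plots the IDR signal of the 12 numbered summits of CHES-1-like against distance from its first TSS in kb, black where the summit was replicated in all 3 reduced lists and red where it was found in 1. The lower panel shows exons (pale), coding exons (dark) and the 4 TSSs (arrows), with all 12 summits before the coding exons and the highest 4, numbers 3, 4, 8 and 9, in introns.

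Numbered from the 5' end, summits 3 and 4 were the highest of the gene. Summit 3, in an intron 2012 bp upstream of TSS 2, had a signal of 832.0 and rank 294. Its nearest TSS, at 800 bp, was that of the nested noncoding gene lncRNA:CR43287. Its relative signal was 2.88, 4.11 and 3.10 in replicates 1, 2 and 3 (3.37 ± 0.657, n = 3). Summit 4, 670 bp upstream of TSS 2, had a signal of 823.9 and rank 303, with relative signals of 2.90, 3.74 and 3.45 (3.36 ± 0.429). Summits 3 and 4 did not differ beyond their spread, and each replicate placed both far above its median, with replicate 2 the highest at both.

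Between TSS 2 and TSS 3 the highest summits were 8 and 9. Summit 8 had a signal of 730.4 (rank 395) and relative signals of 2.50, 3.83 and 2.47 (2.93 ± 0.779, n = 3). Summit 9 had a signal of 693.0 (rank 435) and relative signals of 2.64, 3.01 and 2.80 (2.81 ± 0.184). They too lay within each other's spread, and replicate 2 stood above the other replicates at summit 8. Summit 10, 394 bp upstream of TSS 3, had a signal of 439.2 (rank 1084) and relative signals of 1.59, 1.98 and 1.71 (1.76 ± 0.201), below all replicate values of summits 8 and 9.

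At the first TSS, summit 1 (64 bp downstream) had a signal of 254.6 and summit 2 (268 bp downstream) a signal of 536.5. Their peaks overlap in the IDR list, and in replicate 3 the same peak, with a signal of 198.4, covered both. Summit 2 had relative signals of 2.13, 2.27 and 2.29 (2.23 ± 0.0892, n = 3). Summit 1 had 1.77, 0.807 and 2.29 (1.62 ± 0.753), where the value of replicate 3 is that of the shared peak and replicate 2 lay under its median. The replicates therefore did not place summit 1 alike.

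The remaining 5 summits had signals of 136.6 to 260.0. Summits 7, 11 and 12 were replicated in all 3 reduced lists, with relative signals of 1.04 ± 0.0956, 0.998 ± 0.205 and 0.917 ± 0.224 (n = 3). Summits 5 (144.9) and 6 (136.6, rank 5597) lay near the lower end of the IDR list and were in the reduced list of 1 replicate only. Of the 12 summits, 10 were replicated in all 3 reduced lists, and the order of the 12 signals had Spearman correlations of 0.881 between replicates 1 and 2, 0.970 between 1 and 3 and 0.851 between 2 and 3. These are correlations over 12 sites of the same gene that share libraries and, in 1 case, a peak. Counted in each reduced list on its own, the gene and its flanks held 13, 11 and 10 summits in replicates 1, 2 and 3 (11.3 ± 1.53, n = 3).

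**Figure D3:**
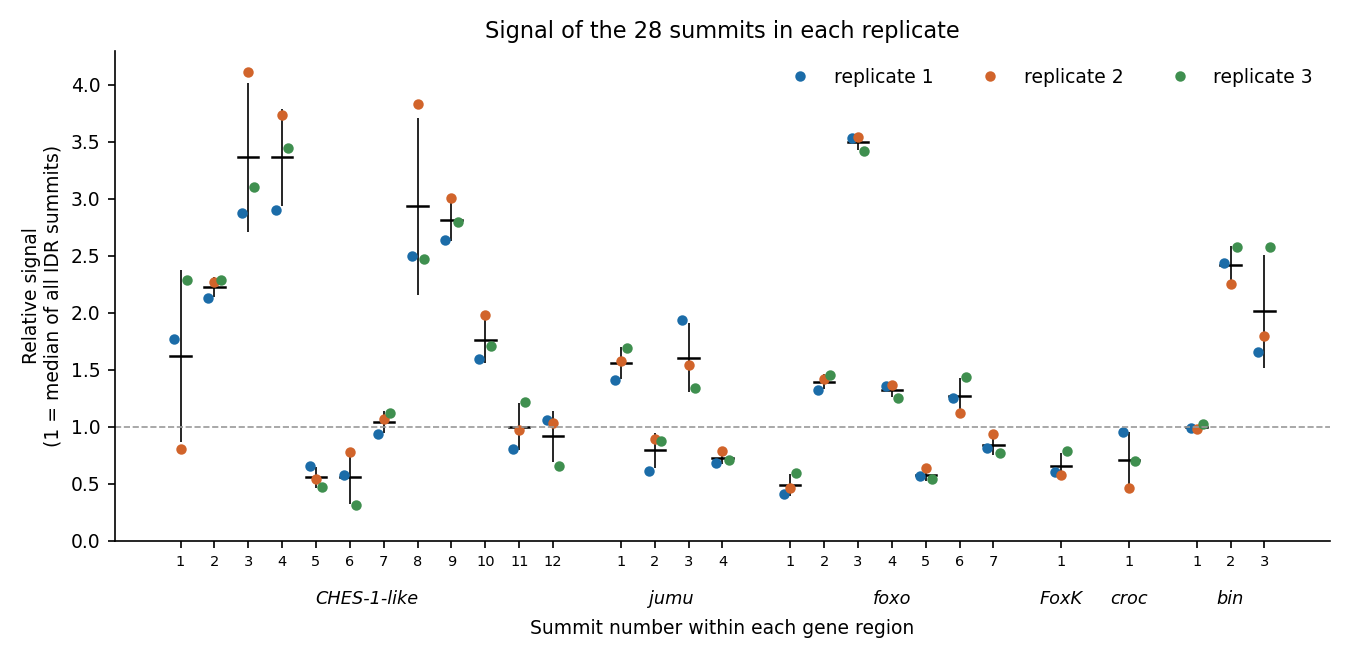
Each point is the relative signal of 1 replicate at 1 of the 28 summits, with the mean (bar) and SD (line) over 3 replicates; the dashed line at 1 marks the median over all IDR summits covered in all 3 replicates. Summit 3 of foxo and summits 3, 4, 8 and 9 of CHES-1-like stand highest, and the widest spreads are at summits 1, 3 and 8 of CHES-1-like.

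Few genes held more summits. Inside the gene, 8 protein-coding genes, CHES-1-like included, had at least 12 summits. The others were kirre with 23, CG1677 with 18, sbb with 14, Raf, shn and ush with 13 each, and pnt with 12. Per 100 kb of span, CHES-1-like had 44.4 summits, and none of the other genes among the 744 at least as long reached that density. The 744 were cut at its own length, so any other gene needed at least 12 summits to reach it. CHES-1-like was also chosen for its number of peaks. The median of the 744 was 1.84 per 100 kb. With the 10 kb flanks, which held no summit, the density was 25.5 per 100 kb, a level reached by 162 genes with CHES-1-like among them. Over all protein-coding genes the median was 4.65 per 100 kb and the 99th percentile 26.5. Of the 652 genes whose region was within 20% of the same length, the median held 2 summits and the most held 13.

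**Figure D4:**
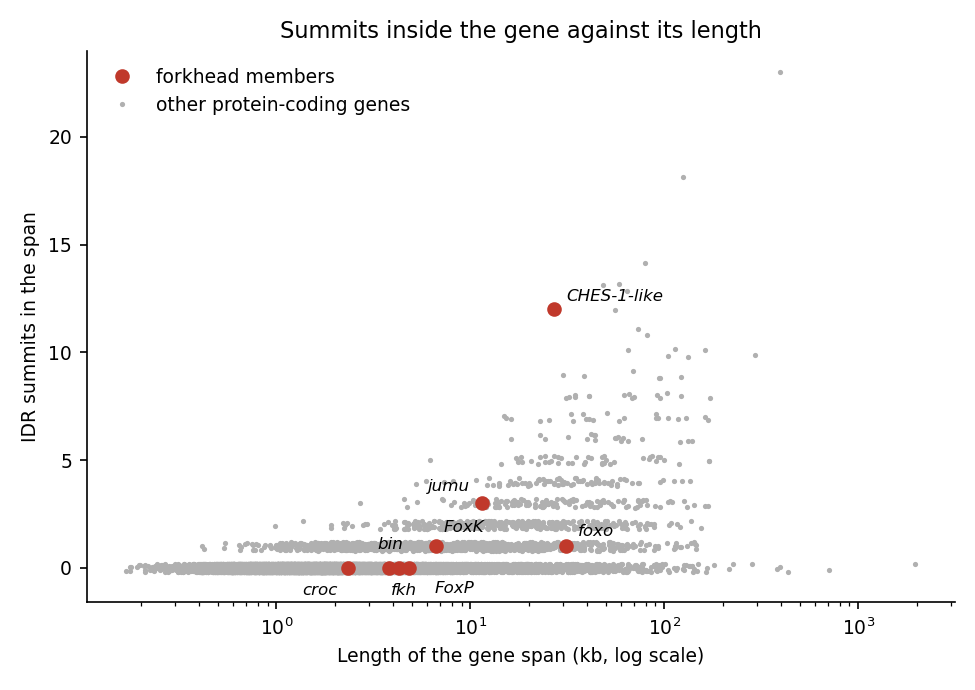
Number of IDR summits inside the gene (vertical axis) against the length of its span in kb (log scale) for the 8 members (red) and all other protein-coding genes (grey, with slight vertical scatter). CHES-1-like, at 12 summits in 27048 bp, lies above all genes that are shorter, while foxo, of similar length, holds 1.

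The genes most like CHES-1-like in summit density and region length, over the IDR list, were Moe, tara, msn, aop and CG42327. Their distance, the sum of the absolute natural-log ratios of the 2 measures, was 0.086, 0.219, 0.274, 0.287 and 0.287. Moe, the fly's moesin, had 11 summits in its region and 7 inside the gene. Its reduced lists held 9, 10 and 7 (8.67 ± 1.53, n = 3), beside 13, 11 and 10 for CHES-1-like. tara had 13 summits in its region and 8 inside the gene, and its reduced lists held 13, 14 and 13 (13.3 ± 0.577), at or above CHES-1-like in every replicate. msn had 11 and 6, and its reduced lists held 9, 11 and 11 (10.3 ± 1.15). aop had 9 and 5, and its reduced lists held 8, 9 and 12 (9.67 ± 2.08). CG42327 had 9 and 4, and its reduced lists held 8, 9 and 6 (7.67 ± 1.53). All 5 kept part of their summits in the flanks, where CHES-1-like had none.

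The windows of 201 bases around the highest summits of CHES-1-like are printed to show what lies there. Capitals mark each CAGTG or its reverse complement CACTG, a run described further below, and all are plus-strand dm6 bases from the RefSeq genome, 5' to 3'. The windows of summits 1 and 2 fall in an annotated UTR and are not shown.
CHES-1-like summit 3, chrX:7706875-7707075: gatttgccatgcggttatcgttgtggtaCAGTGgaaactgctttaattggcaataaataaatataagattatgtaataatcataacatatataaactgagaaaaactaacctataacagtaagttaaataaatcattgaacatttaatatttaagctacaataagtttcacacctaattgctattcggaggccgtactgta
CHES-1-like summit 4, chrX:7705533-7705733: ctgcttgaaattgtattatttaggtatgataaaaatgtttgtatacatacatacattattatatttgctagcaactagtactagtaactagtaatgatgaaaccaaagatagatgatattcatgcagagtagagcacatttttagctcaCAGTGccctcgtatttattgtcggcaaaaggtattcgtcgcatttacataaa
CHES-1-like summit 8, chrX:7700313-7700513: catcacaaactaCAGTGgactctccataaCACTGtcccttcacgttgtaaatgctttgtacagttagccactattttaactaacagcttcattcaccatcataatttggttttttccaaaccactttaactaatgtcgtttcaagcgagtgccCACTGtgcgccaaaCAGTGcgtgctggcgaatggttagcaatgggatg
CHES-1-like summit 9, chrX:7698312-7698512: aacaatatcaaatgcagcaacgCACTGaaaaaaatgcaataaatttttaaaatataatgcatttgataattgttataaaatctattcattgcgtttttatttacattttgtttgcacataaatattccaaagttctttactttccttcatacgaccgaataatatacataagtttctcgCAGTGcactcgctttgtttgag
CHES-1-like summit 10, chrX:7696998-7697198: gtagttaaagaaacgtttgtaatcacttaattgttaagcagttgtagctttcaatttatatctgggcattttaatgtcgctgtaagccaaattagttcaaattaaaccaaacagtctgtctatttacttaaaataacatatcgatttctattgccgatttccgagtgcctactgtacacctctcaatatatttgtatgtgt
Summit 8 had 4 copies of the run, at 86 and 69 bp before and 55 and 69 bp after the summit on the plus strand. Summit 9 had 2 copies, 76 bp before and 81 bp after it. Summits 3 and 4, with higher signals, had 1 copy each, and summit 10 had 0.

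jumu (FBgn0015396, chr3R:10350182-10361612, plus strand), the other FoxN gene, had 4 summits and none within 500 bp of its TSS. Of these, 3 were intronic. Summit 1, 1311 bp downstream of the TSS, had a signal of 384.1 and relative signals of 1.41, 1.58 and 1.69 (1.56 ± 0.141, n = 3). Summit 3, 6918 bp downstream, had a signal of 387.2 and relative signals of 1.94, 1.54 and 1.34 (1.61 ± 0.303), within the spread of summit 1. Summit 2 lay between them with a signal of 213.0 (0.793 ± 0.156), below all replicate values of both. Summit 4, 9067 bp beyond the 3' end with a signal of 176.8, lay in an intron of Rfx, whose TSS was 3200 bp away. All 4 were replicated, and each reduced list held 5 summits in the region. At 12.7 per 100 kb, jumu was near 13.7 for foxo and 12.6 for bin, densities reached by 2457, 2005 and 2491 genes, the gene itself included. The window of summit 1 held 1 copy of the run.
jumu summit 1, chr3R:10351393-10351593: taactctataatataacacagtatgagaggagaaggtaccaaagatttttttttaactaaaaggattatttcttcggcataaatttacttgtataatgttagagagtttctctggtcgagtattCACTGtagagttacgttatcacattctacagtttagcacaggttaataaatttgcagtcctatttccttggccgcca

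foxo (chr3R:14056945-14087978, plus strand) is 31034 bp long, close to CHES-1-like, yet 1 of its 7 summits lay inside the gene. Upstream stood 4 summits, at 8096, 4552, 3320 and 280 bp from the first TSS. Summit 3, at 3320 bp, had the highest signal of all 28, 852.1 at rank 276. Its relative signals of 3.53, 3.54 and 3.42 (3.49 ± 0.0687, n = 3) were close to each other and overlapped those of CHES-1-like summits 3 and 4. Summit 2 had a signal of 348.8 (1.40 ± 0.0643) and the promoter summit 4 a signal of 323.0 (1.33 ± 0.0663), which did not differ beyond their spread. Summit 1, the farthest, had a signal of 137.3 and was in the reduced list of 1 replicate. Its nearest TSS belonged to tRNA:Ser-GCT-2-2, and its nearest coding TSS was that of foxo.

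The summits within and beyond the 3' part of foxo stood closer to the TSSs of other genes than to those of foxo. The intronic summit 5 (146.1, in 1 reduced list) had Npc2b as its nearest TSS at 12277 bp. Summit 6 (295.1, relative signal 1.27 ± 0.163, n = 3) lay 1052 bp past the end of foxo and 487 bp from the TSS of Npc2b, a sterol-binding protein gene. Summit 7 (206.7, relative signal 0.840 ± 0.0881) lay in an intron of CCHa1, a neuropeptide gene, 1220 bp from its TSS. So 3 of the 7 summits counted for foxo had another gene's TSS as the nearest coding one. The windows of the highest summit and of the promoter summit follow, with 1 and 0 copies of the run.
foxo summit 3, chr3R:14053525-14053725: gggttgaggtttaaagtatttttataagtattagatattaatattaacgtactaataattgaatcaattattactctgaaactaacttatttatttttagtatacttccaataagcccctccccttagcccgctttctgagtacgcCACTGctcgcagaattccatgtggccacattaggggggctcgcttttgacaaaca
foxo summit 4, chr3R:14056565-14056765: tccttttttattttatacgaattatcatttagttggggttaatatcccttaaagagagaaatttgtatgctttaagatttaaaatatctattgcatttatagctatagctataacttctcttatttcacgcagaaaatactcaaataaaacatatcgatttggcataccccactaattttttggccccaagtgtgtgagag

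FoxK (chr3L:11114169-11120783, minus strand) had 1 summit, with a signal of 158.0 at rank 4728. It lay in an intron, 364 bp upstream of the last of the gene's 4 TSSs, and was in all 3 reduced lists. Its relative signals were 0.602, 0.577 and 0.788 (0.655 ± 0.115, n = 3), all below the median. The window had no copy of the run.
FoxK summit 1, chr3L:11118730-11118930: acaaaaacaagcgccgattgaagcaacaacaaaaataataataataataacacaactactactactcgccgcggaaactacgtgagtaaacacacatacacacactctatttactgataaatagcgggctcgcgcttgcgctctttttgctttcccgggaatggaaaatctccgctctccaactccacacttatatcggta

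bin (chr3L:6990622-6994447, plus strand), a gene of 3826 bp, had 3 summits, all upstream. Summit 2, at 1407 bp, had a signal of 577.2 and relative signals of 2.44, 2.25 and 2.58 (2.42 ± 0.165, n = 3). Summit 3, at 1195 bp, had a signal of 455.2 and relative signals of 1.66, 1.80 and 2.58 (2.01 ± 0.492). They stood 212 bp apart, and in replicate 3 the same peak with a signal of 222.9 covered both, so that replicate does not separate them. In replicates 1 and 2 summit 2 was the higher. Summit 1, 8658 bp upstream with a signal of 236.6 (0.996 ± 0.0232), lay 261 bp from the TSS of lncRNA:CR46000, and the nearest coding TSS was that of Galphai. The window of summit 2 had 2 copies of the run.
bin summit 2, chr3L:6989115-6989315: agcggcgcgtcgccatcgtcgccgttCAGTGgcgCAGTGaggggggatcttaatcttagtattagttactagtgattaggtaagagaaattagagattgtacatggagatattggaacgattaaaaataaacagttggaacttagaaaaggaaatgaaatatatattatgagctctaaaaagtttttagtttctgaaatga

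croc, FoxP and fkh had little or no signal that passed the IDR threshold. The only summit of croc (chr3L:21474133-21476479) lay 9628 bp past its 3' end with a signal of 166.2. It was in 2 of 3 reduced lists, with relative signals of 0.955, 0.465 and 0.699 (0.706 ± 0.245, n = 3). For fkh (chr3R:28580976-28585264) the nearest IDR summit was 14406 bp away. A peak 236 bp upstream of a fkh TSS stood in the pooled relaxed list with a signal of 126.6 at rank 6091, just past the 5786 that were kept. Its ranks in the replicates were 1791, 16422 and 12601, so only replicate 1 ranked it high. For FoxP (chr3R:9726020-9730872) the nearest IDR summit was 16684 bp away. The highest weaker peak in its region had a signal of 104.0 and lay 9994 bp upstream of a FoxP TSS. A weaker peak inside FoxP had a signal of 44.54 and was in no replicate's list. In the region of croc a weaker peak had a signal of 127.3 at rank 6052, with ranks of 7599, 4582 and 9234 in replicates 1, 2 and 3. Weaker promoter peaks also stood at FoxK, among them one 6 bp upstream of a TSS with a signal of 87.85. jumu had a weaker promoter peak, 192 bp upstream of its TSS, with a signal of 56.6.

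The sum of relative signals over the summits of a gene ordered the members. CHES-1-like had sums of 20.4, 24.1 and 21.9 in replicates 1, 2 and 3 (22.2 ± 1.86, n = 3). foxo had 9.24, 9.49 and 9.46 (9.40 ± 0.134), bin 5.09, 5.03 and 6.18 (5.43 ± 0.648) and jumu 4.65, 4.80 and 4.61 (4.69 ± 0.0996). croc (0.706 ± 0.245) and FoxK (0.656 ± 0.115) came last among those with a summit. CHES-1-like stood above foxo, and foxo above bin and jumu, in every replicate. A sum grows with the number of summits, which was 12, 7, 3 and 4 for CHES-1-like, foxo, bin and jumu. Those counts were in view when the genes were chosen, and the summits came from the same 3 replicates. The order is therefore a description only. bin was above jumu in every replicate, by little in replicate 2, and it counts a shared peak of replicate 3 for 2 summits, as CHES-1-like does. croc and FoxK overlapped.

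The 10 other forkhead genes had no summit inside a gene or within 500 bp of a TSS, and 4 of them had at least 1 in the region. These 4 held 7 different summits in all. The highest, with a signal of 1183 at rank 124, lay between the segmentation genes slp1 and slp2, 4320 bp upstream of slp2. Its relative signals were 5.11, 5.22 and 4.47 (4.94 ± 0.409, n = 3), above those of all 28 summits of the members. FoxL1 had 1 summit 1934 bp upstream with a signal of 369.1 (1.54 ± 0.160). fd96Ca had 1 with a signal of 134.9, which stood 42 bp from the TSS of shams. fd59A, fd3F, fd19B, fd96Cb, fd102C and CG32006 had none. Over all 18 forkhead genes, 10 had a summit in the region, 3 had a promoter summit and 8 had none at all. Among all protein-coding genes 67.8% had a summit in the region, 22.6% a promoter summit and 13.0% a summit inside the gene.

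Over the 28 summits, the members' median signal was 277.5, beside 232.5 over all IDR summits. Of the 28, 18 were among the 2893 peaks of highest signal and 11 among the 1446 highest. All 3 reduced lists covered 23 of the 28 (82.1%), beside 72.6% of all IDR summits. All 18 with higher signal were among the 23, and of all IDR summits with signal that high 97.9% were covered. The whole relaxed lists of all 3 replicates covered all 28. The replicate summits lay a median of 15 bp from the IDR summit at the members, and 15 bp over all IDR summits covered in all 3 whole lists. Spearman correlations of the 28 signals, a description over sites that share libraries, were 0.905, 0.924 and 0.893 for replicates 1 and 2, 1 and 3, and 2 and 3. The median SD of relative signal was 12.8% of the mean at the members and 15.9% over all IDR summits.

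By position, 17 of the 28 summits were intronic, 9 intergenic and 2 in a 5' UTR, and none lay in a coding exon or 3' UTR. Of the 17, 10 were at CHES-1-like, the gene chosen for its many peaks. Over all IDR summits 47.5% were intronic and 42.0% intergenic. The nearest coding TSS was the member's own for 23 of the 28. The median distance to the next IDR summit was 1352 bp at the members and 1012.5 bp at CHES-1-like, beside 3463.5 bp over all IDR summits. CHES-1-like was chosen for its many peaks, so its close spacing follows from that choice and lowers the members' median. At the other members the distance ranged from 212 bp at bin to 20250 bp at FoxK. Within 500 bp of another summit were 6 of the 28, beside 12.2% of all. Of the peaks, 15 of the 28 were exactly 430 bp wide, as were 67.3% of all IDR peaks, and in all IDR peaks of that width the summit is the middle base. The narrower 13 had a median signal of 536.5, and those 430 bp wide 213.0, beside 470.6 and 189.3 over all IDR peaks. Median GC content within 100 bp of the summit was 32.0% at the members and 33.8% over all IDR summits.

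Near the limits of the rules, the farthest summits counted were those of croc at 9628 bp (signal 166.2) and jumu at 9067 bp (176.8). Just outside 10 kb lay a summit 11000 bp from croc (174.9) and one 12292 bp from bin (164.7). Just inside 500 bp of a TSS were CHES-1-like summit 10 at 394 bp and FoxK summit 1 at 364 bp. Just outside stood CHES-1-like summit 4 at 670 bp (823.9) and bin summit 3 at 1195 bp (455.2).

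The sequence around the summits was not used to choose the genes. The forkhead site TGTTTAC, searched on both strands like all that follow, lay within 100 bp of 1 of the 28 summits (3.57%), beside 5.56% of the 5751 summits away from all forkhead genes. It was in 5.61% of the 13945 windows of the same length just upstream of the first TSS of each protein-coding gene. None of the 12 CHES-1-like windows held it. The looser form TNTTTAC, which contains it, was at 7 of 28 (25.0%), beside 23.5% of other summits and 20.3% of upstream windows. GAGAG, bound by GAGA factor, was at 7 of 28 (25.0%), beside 20.9% and 22.2%. Motif 7 (CANCNCT) was at 6 of 28 (21.4%), beside 31.9% and 32.9%. The Zelda site CAGGTAG was at 1 of 28 (3.57%), beside 0.765% and 1.15%. The DNA replication-related element TATCGATA was at 0 of 28, beside 3.25% and 7.39%. The M1BP site GGTCACAC was at 0 of 28, beside 1.96% and 3.74%. The CTCF core AGNNGGCGC was at 0 of 28, beside 3.27% and 2.09%.

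Words of 8 bases were then ranked on the 5751 other summits, against windows 500 to 700 bp to either side of them. By the difference of shares, all of the best 20 words were made of A and T alone. Any of the best 5 (AAAAATAT, TTAAAAAA, AAAATATT, TTTAAAAA and ATTTAAAA) stood at 10 of the 28 members' summits (35.7%), beside 39.1% of other summits and 14.8% of their flanks. At CHES-1-like 2 of 12 windows held one. The words were ranked on the other summits, so their share there had to exceed that of the flanks.

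Ranked by the ratio of shares, a choice made after the data were seen, 10 of the best 20 words contained the run CAGTG or CACTG. The strongest of all was CAGTGTAG, in 2.33% of other summits and 0.243% of flanks, and it was at 0 of the 28. The DNA replication-related element TATCGATA ranked 3, in 3.25% of other summits and 0.452% of flanks, and at 0 of the 28. AACTATCG, ATCGATAG and ACTATCGA, which share bases with it, were also among the best 20 and at 0 of the 28. CAGTGCAC was in 3.51% of other summits and 0.565% of flanks, and at 3 of the 28. The run alone stood within 100 bp of 14 of the 28 members' summits (50%) and in 10 of their 56 flank windows (17.9%). In the other summits it was in 48.5%, in their flanks in 31.0%, and in upstream windows of all genes in 32.7%. The run was picked from words ranked on these other summits against these flanks, so its excess there follows from that choice. By gene, 7 of 12 windows held it at CHES-1-like, 4 of 7 at foxo, 2 of 4 at jumu, 1 of 3 at bin, and 0 of 1 at FoxK and croc. At least 2 copies were in 6 of the 28 (21.4%), beside 14% of other summits and 6.34% of their flanks.

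The copies lay to the sides of the summit rather than on it. Between 41 and 120 bp from the members' summits there were 23 copies (5.13 per kb), beside 5 within 40 bp (2.20 per kb) and 33 from 121 to 400 bp (2.10 per kb). Most of the 23 were at CHES-1-like. Its summit 8 alone had copies 86 and 69 bp before and 55, 69 and 118 bp after it on the plus strand. At the other summits the densities were 3.90 per kb between 41 and 120 bp, 2.38 per kb within 40 bp and 2.15 per kb from 121 to 400 bp. The bands were set after the profile was seen, and the run itself was picked on the other summits. Overlapping windows of neighbouring summits, as at bin, can count a copy for both.

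**Figure D5:**
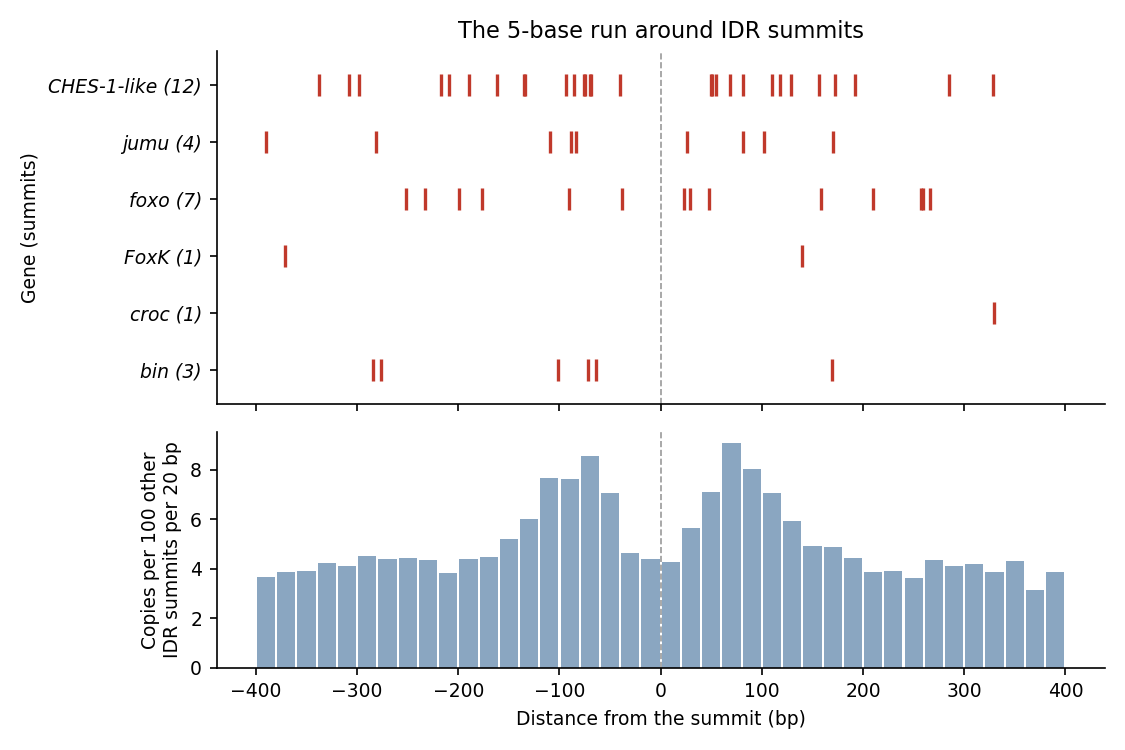
Upper panel: each tick is a copy of the run CAGTG or its reverse complement within 400 bp of a member's summit, by gene, with the number of summits in brackets. Lower panel: copies per 100 of the 5751 other IDR summits in bins of 20 bp, which peak at 9.08 in the bin centred 70 bp from the summit and fall to 4.26 in the bin at 10 bp.

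Genes that work with the forkhead factors were read from lists chosen with earlier results of these data known. Of the 17 heart genes, 2 had a promoter summit, beside 22.6% of all protein-coding genes. They were tin, the cardiac homeobox gene (signal 566.1), and polo, a mitotic kinase gene (148.7, in 2 reduced lists only). Of 18 insulin pathway genes matched by symbol, 9 (50%) had one. The highest were Sirt1 (649.2), Pi3K21B (533.1) and Rheb (349.1), which encode a deacetylase, the regulatory subunit of PI3-kinase and a small GTPase that activates Tor. The insulin receptor gene InR had a promoter summit of 261.6 and Thor, a known foxo target, one of 160.2. The summit of Thor was in 2 reduced lists only, and not all of the 9 were replicated. None of the 7 visceral mesoderm genes had one, beside 1 of 12 salivary gland and gut genes, CrebA (301.6), a secretory pathway regulator. These lists were not tested.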

How the data were processed

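The members and the gene lists were chosen with earlier results of these data known. Per the labels and the submitters' listings, chromatin was sonicated to fragments of 200 to 800 bp and peaks were called by the authors against a control alignment; that control is not used here. What called the peaks, and at which IDR cut-off, is not given in the sources used here. The deposited lists on dm6 give a signal value for each peak (column 7, of unstated scale, taken as linear for relative signal) and an other kind of value, the summit's offset in bp from the peak start (column 10). The 5 lists on dm3 were not used.

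Coordinates are counted from 1. Genes came from Ensembl BDGP6.54 (release 115) and bases from the RefSeq genome of the same assembly; the lists' last peak on each arm lay within it. Summits were counted in the span, in the span plus 10 kb, and within 500 bp of any TSS, in Python 3.11.15 with pandas 2.3.3 and numpy 2.4.6. A replicate peak counted when it contained the IDR summit. Motif windows were 201 bp. With 1 group there was no contrast and no test; 3 biological replicates from 1 line give the spread, and depth per sample is unknown. Named genes are the members, the other forkhead genes, genes of the nearest TSS, the 5 genes most like CHES-1-like, and up to 3 promoter-bound genes per list with the highest signal; InR, Thor and the genes with at least 12 summits were added after their values were seen. Windows shown are those of the 3 highest CHES-1-like summits without a promoter and of the promoter summits of foxo and FoxK; the others were added later. Tor did not match by symbol. Counting, cover and word ranking were tested on simulated data. Alternatives covered windows, flanks, list length, overlap rules, the pooled list and each replicate left out.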

Additional observations from a re-analysis of the deposited data

How the results depend on the processing

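Settings were changed one at a time, except that each replicate was left out by also requiring cover in the reduced lists of the others, which the IDR counts do not require. A promoter summit was found at 1 member, CHES-1-like, within 250 bp in place of 500 bp, and at 5 with the pooled relaxed list; the other settings gave 2 or 3. CHES-1-like kept 9 to 13 summits under all settings but the pooled relaxed list, which gave 29. With that list foxo had 25 summits, bin 15, fkh 11, FoxK 9, croc 4 and FoxP 2, and the densities per 100 kb were 61.6 for CHES-1-like, 19.1 for jumu, 49 for foxo, 33.8 for FoxK, 8.05 for FoxP, 45.3 for fkh, 17.9 for croc and 63 for bin. That list is longer by construction.

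With only the 2893 IDR peaks of highest signal, jumu had 2 summits, foxo 4, and FoxK and croc 0, with densities of 19.1 for CHES-1-like, 6.36 for jumu, 7.84 for foxo and 0 for FoxK and croc. Flanks of 5 kb gave croc 0 summits and densities of 32.4 for CHES-1-like, 14 for jumu, 12.2 for foxo, 6.02 for FoxK and 0 for croc. Flanks of 20 kb gave bin 7 summits, FoxK 3, croc 2, and FoxP and fkh 1, with densities of 19.4 for CHES-1-like, 9.72 for jumu, 11.3 for foxo, 6.44 for FoxK and 2.23 for FoxP. With no flank foxo had 1 summit and croc and bin 0, with densities of 44.4 for CHES-1-like, 26.2 for jumu, 3.22 for foxo, 15.1 for FoxK and 0 for croc and bin. A density changes with the flank by construction.

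With each replicate left out in that way, CHES-1-like had 10 summits each time (density 21.3), foxo 5 (density 9.8) and croc 0 to 1 (density 0 to 4.47). The counts of CHES-1-like and foxo were the same whichever replicate was left out: summits 5 and 6 of CHES-1-like and 1 and 5 of foxo stood in 1 reduced list only, so the required cover removed them. The summit of croc was not in the reduced list of replicate 2, and it was not counted wherever that replicate's cover was required. The counts of the other members did not change. No paired analysis was possible because the 3 replicates form 1 group.

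The members' median signal was 348.8 with flanks of 5 kb and 250.6 with 20 kb. As the mean of the 3 replicates' own signals it was 104.2, beside 79.59 over all IDR summits covered in all 3. Without CHES-1-like, a setting chosen after seeing the data, 13 of the remaining 16 summits were in all 3 reduced lists (81.2%). Any of the 5 words was at 17.9% of members' summits within 50 bp and 71.4% within 250 bp; the run CAGTG, also chosen after seeing the data, was at 21.4% and 89.3%, beside 21.3% and 74.7% of the other IDR summits. GAGAG was at 7.14% of members' summits within 50 bp and 75% within 250 bp, beside 8.94% and 49.9% of the other IDR summits. Motif 7 was at 3.57% and 60.7%, beside 16.1% and 59.8%. Wider windows hold more bases by construction. Of 166 alternative values, 93 moved by less than 1.5 times for counts, the replicates' SD for levels or the 95% interval for shares, and 73 moved by more.

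Peak lists without counts of reads, an unstated caller and 1 line limit these values: a summit missing from the IDR list is not shown to be absent from the embryo.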
